A study of Mus musculus with 30 samples.

Results

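Brain cortex of adult mice was compared with 12 organs outside the nervous system to find genes whose transcripts stood high or low in cortex. The members are the 2 arrays labelled brain_cortex, of 30 arrays in the series. They were set against the mean of 12 organs with 2 arrays each, 24 in all: stomach, small and large intestine, liver, kidney, bladder, lung, heart, muscle, bone, fat and skin. Cerebellum and eyes, also with 2 arrays each, were kept out of that mean because they hold neural tissue, and were used beside it. All mice were adult male C57BL/6 animals, and the labels put their age at 28 weeks, which differs from the age in the paper. The series text says that most replicates came from different animals, but for bone and fat it names only 1 replication, so p-values that use those arrays may measure technical spread in part.

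The cerebral cortex is built of excitatory projection neurons and inhibitory interneurons, with astrocytes, oligodendrocytes, microglia and vessels among them. Neurons signal through ion channels, through vesicles released at the synapse and through receptors and scaffolds on the receiving side. They carry long axons supplied by motor proteins, and they take most of their energy from glucose rather than from fatty acids. A bulk sample of the tissue holds the RNA of all these cells together. Fewer cells of a type and less RNA per cell cannot be told apart in such a sample.

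Each value is a log2 ratio of tissue RNA (Cy3) to a common reference (Cy5), a pool of mouse cell line RNA mixed with embryonic stem cell RNA. A value of 0 means as much signal as in the reference, and a probe near background in both dyes also reads near 0. Ratios of different genes are not levels to be ranked against each other. Of 25030 probes in the authors' table, 21026 were tested. The other probes were not well above background on both arrays of any tissue. A probe was called when its adjusted p in limma was under 0.05 and its difference reached the fold threshold. That threshold was a log2 of at least 2 between cortex and the 12-tissue mean, which is 4-fold. The SEs and p-values rest on the spread between replicates, pooled over the 15 tissues. They leave out the spread among the 12 organs, and n counts the cortex arrays. Symbols were known for 24% of the tested probes, from the study's own probe lists, so every ranking of named genes holds only among those. The lists are not a random sample of genes.

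Both cortex arrays were alike, with r = 0.988 across the tested probes (probes are not independent replicates) and a median SD of 0.1. They did not come from 1 slide or 1 scan day. Replicate 1 shared its slide and day with both cerebellum arrays, and replicate 2 shared its slide and day with lung replicate 1. On replicate 1, 76.9% of the probes were well above background, and on replicate 2 60.8% were, within the 53.9 to 76.9% seen over all 30 arrays. The tissues fat, bone and large intestine had replicates that stood apart from each other, and without them the counts below were 1683 higher and 1063 lower.

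In cortex 1672 probes were higher than in the 12 tissues, 7.95% of those tested, and 1076 were lower, 5.12%. Among 5047 genes with a symbol 252 were higher, 4.99%, and 140 were lower, 2.77%. Higher probes made up 60.8% of the calls, and 78.8% when each array was centred on its median in place of loess, so the split between directions depends on the scaling. In 1350 of the higher probes both cortex arrays lay above all 24 other arrays, 6.42% of those tested. In 694 of the lower probes both lay below all 24, 3.3%. For genes with a symbol these shares were 4.16% and 1.9%. Called or not, both cortex arrays lay above all 24 in 12.8% of the tested probes and below all 24 in 9.01%. The median difference over all tested probes was -0.11. Within the scan days of the cortex arrays, against lung, liver, heart, kidney and bladder with the day as a block, 1717 probes were higher and 1190 lower.

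The label was set beside markers of cell types. Of 8 measured markers of neurons and of cortex, 7 were higher in cortex and the median difference was 3.51, or 5.04 with the scanner software's processed signals. The median ratio of these markers was 4.49 and 4.14 on the cortex arrays, 3.21 and 3.38 in cerebellum, 2.62 and 2.89 in eyes, and from -0.43 to 2.13 on the 24 arrays, the last on a large intestine array. Muscle markers had a median of -0.18 and -0.10 on the cortex arrays, against up to 4.32 on the 24 arrays. Eye markers had 0.10 and 0.01 in cortex, against 4.73 and 4.58 in eyes. The 3 astrocyte markers did not set cortex apart, with medians of 2.28 and 2.16 in cortex and up to 2.66 on a large intestine array. Of 23 listed markers of neurons and cortex only 8 were measured. The lists were chosen with earlier results of these data known, so these values describe the arrays and are no independent check of the label.

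The 20 named genes furthest above the other tissues, among called genes whose cortex arrays both lay above all 24, differed by 5.24 to 7.01 in log2, 37.7- to 129-fold, with SEs of 0.11 to 0.74. They were well above background on 4 to 24 of the 24 other arrays, so the folds of some rest on comparison values near background. Of these 20, 9 lie on chromosome 1, where 18.5% of all tested symbols lie, and the reason for this count was not tested. On the cerebellum arrays 18 of the 20 were also above all 24 arrays, and on the eyes arrays 15 were, where 12% and 9.69% of all tested probes were. Cerebellum and eyes were compared with the same 24 arrays.

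The leaders included secretory, axonal and transport genes of neurons. Scg2 encodes secretogranin II, a protein of dense-core granules from which a neuropeptide is cut. It read 8.04 and 7.68 in cortex, and on the 24 arrays its lowest, median and highest values were -0.31, -0.04 and 6.42. The high values were all from gut: 5.86 and 6.17 in small intestine, 5.18 and 4.76 in stomach, and 6.42 and 3.63 in large intestine. Cortex exceeded the mean by 6.52 ± 0.40 (SE, n = 2 cortex arrays, limma adjusted p = 8.59e-11). The difference is thus an average over organs that were near 0 and gut organs that stood between these and cortex.

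**Figure D1:**
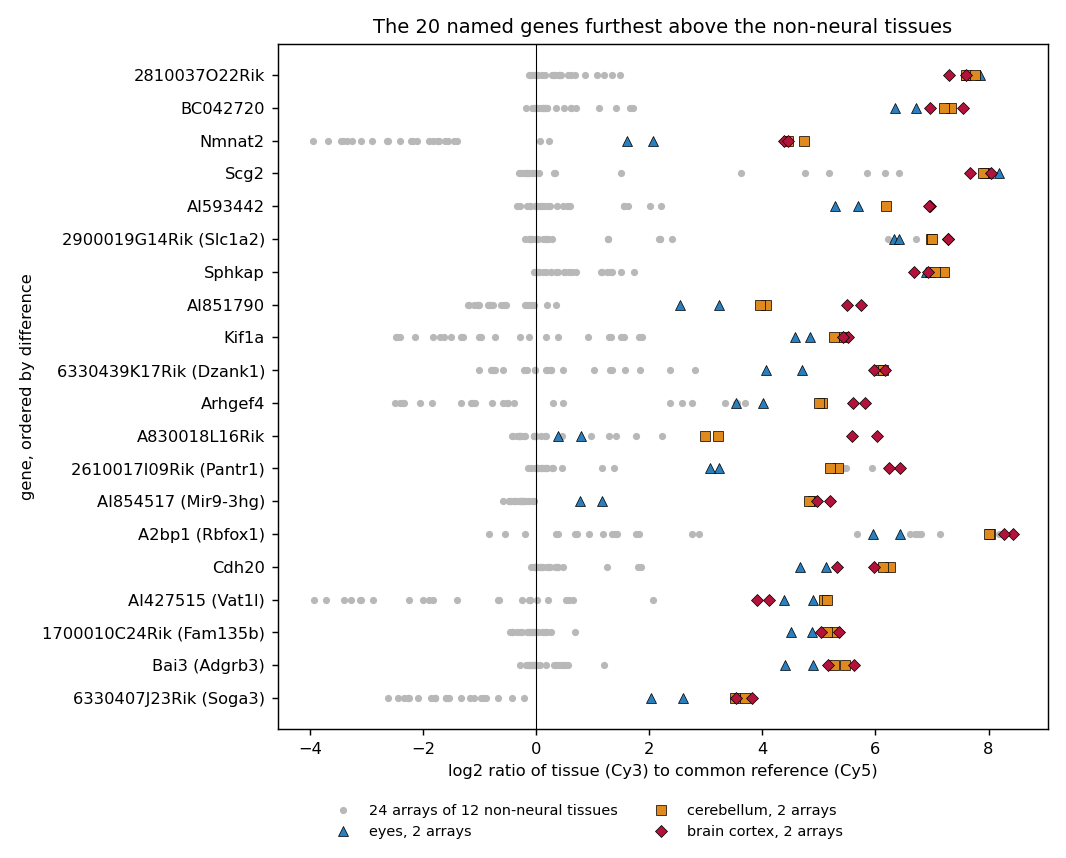
The 20 named genes furthest above the 12 non-neural tissues, in order of the difference; the horizontal axis is the log2 ratio of tissue to common reference and each mark is 1 array. Red diamonds are cortex, orange squares cerebellum, blue triangles eyes and grey points the 24 other arrays, and in all 20 genes both diamonds lie to the right of every grey point.

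Promoter sequence is shown for 2 genes of the higher set because it holds an element or pair of elements searched for, and it comes from RefSeq on build GRCm38.p6. The capitals mark the palindrome TGACGTCA, the cAMP response element, or parts of the RE1 element that the repressor REST binds. The RE1 parts searched were TTCAGCACC on the left and GGACAG on the right, each on both strands. Bases are counted from the start of transcription, with -1 just before it and no 0. Scg2 (chr1:79440025-79440126, minus strand, bases -100 to 2) carries the cAMP element at -68 to -61, then the right part of RE1 at -13 to -8 and the left part at -7 to 2, both reading on the opposite strand. In Dner, which is not shown, the left part lies at -150 to -142 and the right part at -49 to -44, so they do not adjoin. Mir9-3hg (chr7:79499926-79500025, plus strand, bases -100 to -1) carries the cAMP element at -51 to -44.
Scg2: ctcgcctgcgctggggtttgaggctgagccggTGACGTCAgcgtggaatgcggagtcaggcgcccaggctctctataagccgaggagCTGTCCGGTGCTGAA
Mir9-3hg: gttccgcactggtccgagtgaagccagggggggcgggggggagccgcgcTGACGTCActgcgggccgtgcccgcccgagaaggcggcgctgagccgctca

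In windows from 250 bases before to 50 after the start, TTCAGCACC was in 2 of 70 windows of named genes higher in cortex, 2.86%, in 0 of 49 windows of genes lower in cortex, and in 0.371% of 32851 windows of all genes. TGACGTCA was in 2 windows of the higher genes, 2.86%, in 0 of the lower genes, and in 1.79% of all. The short GGACAG was in 27.1% of the higher, 28.6% of the lower and 22.2% of all windows. The letters TATAAA, searched on the gene's strand only, were in 2.86%, 12.2% and 8.32%. The observed over expected ratio of CG pairs had a median of 0.59 in windows of higher genes, 0.36 in those of lower genes and 0.38 over all windows. Windows were matched for 30 of the 40 genes of the leading sets, and in all cover 52 higher and 44 lower genes, and several windows of 1 gene overlap. These shares are a description of the letters, and binding was not measured.

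Nmnat2 makes NAD in axons and is needed for their survival. It read 4.39 and 4.45 in cortex, while the 24 arrays ran from -3.95 over a median of -2.19 to 0.23. Cortex was higher by 6.67 ± 0.21 (SE, n = 2, limma adjusted p = 5.14e-15), with cerebellum at 4.73 and 4.46 and eyes at 1.6 and 2.06. Kif1a, a motor that carries synaptic vesicle precursors down the axon, read 5.51 and 5.42 against -2.48 to 1.88 on the 24 arrays, with cerebellum at 5.27 and 5.45 and eyes at 4.58 and 4.85, a difference of 5.92 ± 0.24 (SE, n = 2, limma adjusted p = 1.71e-13). For these axonal genes none of the 24 arrays came near cortex.

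Sphkap, an anchor of protein kinase A, read 6.93 and 6.68 in cortex against -0.03 to 1.74 on the 24 arrays, 6.22 ± 0.21 (SE, n = 2, limma adjusted p = 1.97e-14). Bai3 (now Adgrb3), an adhesion receptor at excitatory synapses, read 5.62 and 5.17 against at most 1.20, and Cdh20, a cadherin, 5.97 and 5.32 against at most 1.86. For all 3 genes the cortex arrays were far from overlapping the other organs, and the eyes arrays stood near cortex, at 4.40 to 6.96. The RIKEN transcript 2810037O22Rik read 7.61 and 7.31 in cortex against at most 1.48, the largest difference of a named gene at 7.01 ± 0.22 (SE, n = 2, limma adjusted p = 5.14e-15).

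A830018L16Rik, another RIKEN gene, separated cortex from the other neural organs as well. It read 6.02 and 5.59 in cortex, 3.21 and 2.99 in cerebellum and 0.38 and 0.80 in eyes. Cortex exceeded cerebellum by 2.71 in log2. AI854517, the host transcript of a copy of miR-9 (Mir9-3hg), separated brain from eye instead. It read 5.2 and 4.96 in cortex and 4.90 and 4.82 in cerebellum, against 0.77 and 1.17 in eyes and -0.59 to -0.04 on the 24 arrays. Its difference from the 12 tissues was 5.36 ± 0.11 (SE, n = 2, limma adjusted p = 5.38e-17). The mature microRNA of that locus, known for its role in neural progenitors, is shown with its seed, bases 2 to 8, in capitals (RefSeq, GRCm38.p6, chr7:79505279-79505301), and the array measured the host RNA, not the microRNA.
mmu-miR-9-5p: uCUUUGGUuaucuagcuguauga

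Several genes called higher in cortex were nearly as high in another organ. Of 74 named genes called higher, 21 (28.4%) had another organ within a log2 of 1 of cortex or above it, and of all 1672 higher probes 535 (32%) did. A2bp1 (now Rbfox1), a splicing factor of neurons and striated muscle, read 8.44 and 8.28 in cortex, 8.18 and 8.27 in muscle, 6.70 and 6.75 in heart and 7.14 and 6.62 in bone. 2900019G14Rik, a synonym of the astrocyte glutamate transporter Slc1a2, read 7.28 on both cortex arrays and 6.72 and 6.22 in liver. These 2 genes were still called higher than the 12-tissue mean, by 5.35 ± 0.34 (SE, n = 2, limma adjusted p = 1.47e-10) and 6.24 ± 0.11 (SE, n = 2, limma adjusted p = 1.53e-17).

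For other genes the second organ stood above cortex. Rxrg, a retinoid X receptor, read 4.48 and 5.12 in cortex and 6.65 and 6.76 in muscle. Adrb1, the beta-1 adrenergic receptor, read 5.43 and 5.16 in cortex and 5.88 and 6.03 in lung. Abat, which breaks down the transmitter GABA, read 6.31 and 6.29 in cortex and 6.95 and 6.88 in liver. These genes are high in cortex without being highest there. Against the tissues of the same scan days Abat was not called.

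Pantr1 (on the array as 2610017I09Rik) and the transcription factor Pou3f3 are neighbours in the genome, and both were high in cortex and kidney. Pantr1 read 6.43 and 6.24 in cortex and 5.48 and 5.45 in kidney. Pou3f3 read 3.48 and 2.86 in cortex and 2.69 and 2.78 in kidney. In fat, replicates disagreed for both, at 5.94 and 0.01 for Pantr1 and 3.17 and -0.09 for Pou3f3, and Adcy8, an adenylyl cyclase, showed the same split at 5.41 and 0.04. For these genes the fat arrays carry no common level.

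**Figure D2:**
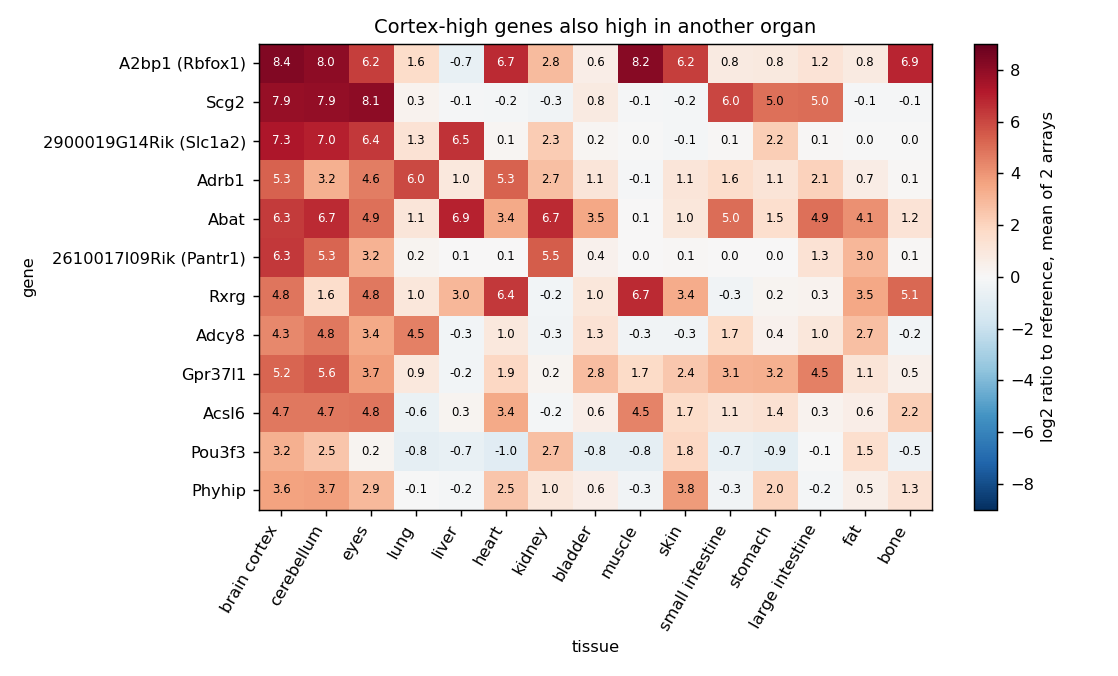
Heatmap of 12 genes, chosen after their values were seen, that were called higher in cortex and were also high in another organ. Rows are genes, columns the 15 tissues, and colour and number give the mean log2 ratio of 2 arrays. Scg2, at 7.9 in cortex and 6.0 in small intestine, is not within a log2 of 1. Rbfox1 is at 8.4 in cortex and 8.2 in muscle, and Acsl6 at 4.7 in cortex and 4.5 in muscle.

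Gene lists by function describe a part of the higher genes of cortex, and were chosen with earlier results of these data known. The shares to read them against are 7.95% of all tested probes and 4.99% of genes with a symbol called higher, and a median difference of -0.11 over all tested probes. The lists carry no test of their own.

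On the receiving side of the synapse, 9 of 16 measured genes of postsynapse and dendrite were higher in cortex, with a median difference of 2.28. They included Sphkap, Abi2 at 4.12, Ngef at 3.93, Ica1l at 3.69, the dendritic microtubule protein Mtap2 (now Map2) at 2.76 and Nos1ap, an adaptor of neuronal nitric oxide synthase, at 2.33. Abi2, which regulates actin, read 2.70 and 2.74 in cortex against -3.03 to -0.09 on the 24 arrays. Ngef, a guanine nucleotide exchange factor also known as ephexin, read 5.78 and 5.72 against -1.98 to 4.25. Neither of these genes overlapped the 24 non-neural arrays. Nos1ap was not called with processed signals or the authors' table.

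On the sending side, 7 of 24 genes of synaptic vesicles and secretory granules were higher, with a median of 1.25. In 14 of the 24 genes both cortex arrays lay above all 24 non-neural arrays, against a share of 12.8% over all tested probes. Beside Scg2 and Kif1a the higher genes were Resp18 at 4.75, Ptprn at 4.13, Sept5 (now Septin5) at 3.51 and Sept3 at 3.13. Rims1, a scaffold of the release site, was higher by 2.79. Sept5 had a mean ratio of 3.45 in cortex, 2.99 in small intestine and 2.80 in large intestine. Resp18 and Ptprn belong to dense-core granules, as Scg2 does. Ptprn read 3.16 and 3.20 in cortex, 2.40 and 2.64 in cerebellum and -0.04 and 0.52 in eyes, against -1.73 to 1.30 on the 24 arrays. Resp18 read 6.04 and 5.91 in cortex, 6.15 and 6.25 in cerebellum and 4.34 and 4.88 in eyes, and up to 4.73 on the 24 arrays, in stomach. As with Scg2, the highest of the 12 non-neural organs was in the gut, stomach for Resp18 and large intestine for Ptprn.

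Adhesion and axon guidance held 10 higher genes of 24 and 1 lower, with a median of 1.72. Dner, a Notch ligand of neurons, read 4.91 and 4.86 in cortex against -1.14 to 3.64, a difference of 4.85 ± 0.18 (SE, n = 2, limma adjusted p = 5.28e-14). Epha4, an ephrin receptor of growing axons, read 4.54 and 4.10 in cortex, 1.37 and 1.41 in cerebellum and 1.86 and 1.81 in eyes, and differed from the 12 tissues by 4.69. Lypd1 at 4.53, Tmeff2 at 4.47, Adam23 at 4.36, Lrrn2 at 4.03, Adam22 at 3.02 and Astn1, which guides migrating neurons along glia, at 2.83 were also higher. Adam22 and Adam23 are receptors of LGI proteins at the synapse. Cdh7 was well above background on both cortex arrays and on 0 of the 24 others, and on the scale of Cy3 levels it was at least 7.27-fold higher. The lower gene was Raph1, at -2.17. Astn1 was not called with processed signals or the authors' table, nor Raph1 with arrays centred on their median.

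Of 16 ion channel genes 4 were higher and 1 lower, with a median of 1.07, and with processed signals 9 were higher, with a median of 2.10. Dpp10, a partner of Kv4 potassium channels, differed by 4.67, the acid-sensing channels Accn2 (now Asic1) and Accn1 (now Asic2) by 3.87 and 3.56, and Kcnq5, a channel of the M current, by 3.44. Kcnq5 read 3.98 and 3.71 in cortex, 1.03 and 0.94 in cerebellum and 0.18 on both eyes arrays. Among receptors for transmitters and peptides 7 of 24 were higher, Bai3, Adrb1 at 3.42, Gpr37l1 at 3.38, Gpr45 at 2.90, the PACAP receptor Adcyap1r1 at 2.58, the kappa opioid receptor Oprk1 at 2.38 and the adenosine receptor Adora2a at 2.27. With processed signals or the authors' table Adcyap1r1 and Adora2a were not called. The angiotensin receptor Agtr1a was lower, at -3.03, with the highest value in liver. The receptor list had a median of 0.28, near that of all probes.

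Downstream of these receptors, 7 of 24 genes of cAMP and G protein signalling were higher, with a median of 1.41. They were the adenylyl cyclases Adcy8 at 3.37, Adcy3 at 2.94 and Adcy2 at 2.92, and the receptor kinase Adrbk2 (now Grk3) at 2.95. The others were Rgs8 at 4.57, Rgs4 at 3.83 and Rgs20 at 2.63, which switch G proteins off. Adcy8 was not highest in cortex, with a mean ratio of 4.29 there and 4.52 in lung. Rgs8 read 4.55 and 4.47 in cortex against -0.33 to 0.77 on the 24 arrays, with cerebellum at 4.86 and 4.93 and eyes at 4.57 and 4.64, and Rgs4 read 5.81 and 5.62 against 0.48 to 3.43. These called Rgs genes did not overlap the 24 non-neural arrays, while others of the family did. Rgs16 read 0.82 and 0.55 in cortex against -1.98 to 4.52, Rgs2 1.73 and 2.16 against -2.27 to 4.18, and neither was called.

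Among metabolic genes known from brain, 10 of 22 were higher and 0 lower, with a median of 1.65. Nmnat2 led, followed by Acsl6 at 3.46, which activates long-chain fatty acids for membrane lipids, Abat at 3.01, the sterol transporters Abcg1 at 2.84 and Abcg4 at 2.57, Phyhip at 2.75, Acot7 at 2.43, Acsl3 at 2.26, the sodium pump subunit Atp1b1 at 2.17 and the sialidase Neu4 at 2.13. Atp1b1 read 5.34 and 5.06 in cortex, but up to 6.44 on an array of kidney. Of 20 transcription and RNA factors 6 were higher, among them A2bp1, the RNA editing enzyme Adarb1 at 3.43, Pou3f3 at 3.19, St18 at 3.15 and Rxrg at 2.30. Without fat, bone and large intestine Atp1b1 was at 1.78 and no longer called. Without cortex replicate 2 Rxrg was at 1.98 and no longer called, and Neu4 was not called without cortex replicate 1.

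Markers of other cells were less uniform. Of 3 astrocyte markers found under their list names, Gpr37l1 was called, and Mt3 at 1.51 and Glul at 0.36 were not. Slc1a2, a marker that the array names 2900019G14Rik and that this count therefore leaves out, was called at 6.24. Of 6 oligodendrocyte markers St18 was called, and Tnr, a matrix protein of perineuronal nets, was at 1.91, while 3 of the list were called with processed signals. Of 10 markers of microglia and blood cells 0 were called in either direction, with a median of -0.45, while 1 was called higher with processed signals and 2 lower against the tissues of the same scan days. Trem2, a lipid receptor of microglia, read -0.02 and 0.13 in cortex, above all 24 arrays, and differed by 1.96 (limma adjusted p = 1.14e-07), just under the fold threshold. Ptprc, the leukocyte antigen CD45, was at -1.58 and Ncf4, of the phagocyte oxidase, at -1.39. Of 8 markers of vessels, meninges and choroid plexus 2 were lower, Aqp1 and Col3a1, and 0 higher, with a median of -0.15. With arrays centred on their median this became 0.15, and the median of the microglia and blood cell list became -0.08. Of 13 markers of other brain regions 3 were higher, Rgs8, Oprk1 and Adora2a, with a median of 0.60, and with processed signals 6 were higher, with a median of 1.90. Of 14 eye markers 0 were called, with a median of 0. The part of these cells in the differences was not tested.

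**Figure D3:**
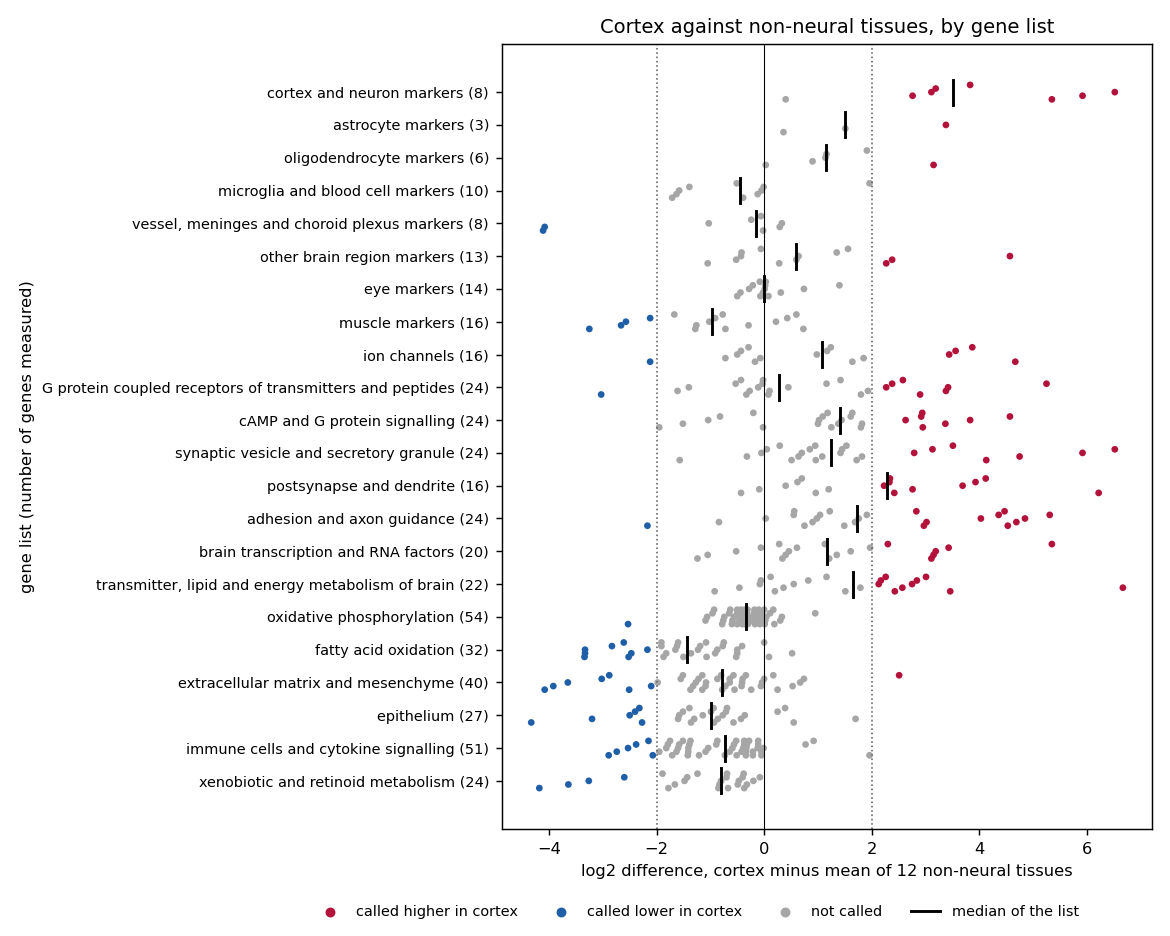
Difference of cortex from the mean of the 12 non-neural tissues for each gene of 22 lists; each point is 1 gene, red if called higher, blue if called lower and grey otherwise, the black bar is the list's median and the dotted lines are the fold threshold of log2 2 in each direction. The medians run from 3.51 for neuron markers to -1.43 for fatty acid oxidation.

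The 20 named genes furthest below the other tissues, chosen the same way, had log2 ratio differences of -6.26 to -3.34. In 12 of them both cortex arrays were well above background, in 6 only 1 was, and in 2 none was, so that their differences and order rest in part on signal near background. On the cerebellum arrays 18 of the 20 were also below all 24 arrays, and on the eyes arrays 4 were, where 12.3% and 5.25% of all tested probes were.

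1100001H23Rik (now Plbd1), a phospholipase B-like protein, was furthest down. It read -1.79 and -1.23 in cortex and -1.74 and -1.52 in cerebellum, while the 24 arrays ran from 2.38 over a median of 5.04 to 6.58. The difference was -6.26 ± 0.20 (SE, n = 2, limma adjusted p = 8.45e-15), with only 1 of the cortex arrays well above background. Eyes, at 2.19 and 1.93, stood apart from brain. AI661453 differed from the 12 tissues by -4.46 and from eyes by -7.01, with eyes at 4.80 and 3.73, of which the first lay above all 24 arrays.

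Aqp1, a water channel of vessels and of the choroid plexus, read -2.14 and -2.01 in cortex against -0.70 to 3.24, with 3.06 and 3.21 in lung. It was lower by a log2 difference of -4.11 ± 0.24 (SE, n = 2, limma adjusted p = 3.51e-11). Ahnak, a giant scaffold protein, read -2.84 and -2.58 against 0.30 to 2.70, a difference of -4.07. Rab17, a GTPase of polarised epithelia, read -2.0 and -1.87 against -1.47 to 5.67, with the highest value in small intestine, and only 1 of its cortex arrays was well above background. Agpat2, an enzyme of triglyceride synthesis, read -2.44 and -2.31 against -0.60 to 2.99, with the highest value in liver. In each of these 4 genes cortex lay below every one of the 24 arrays.

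**Figure D4:**
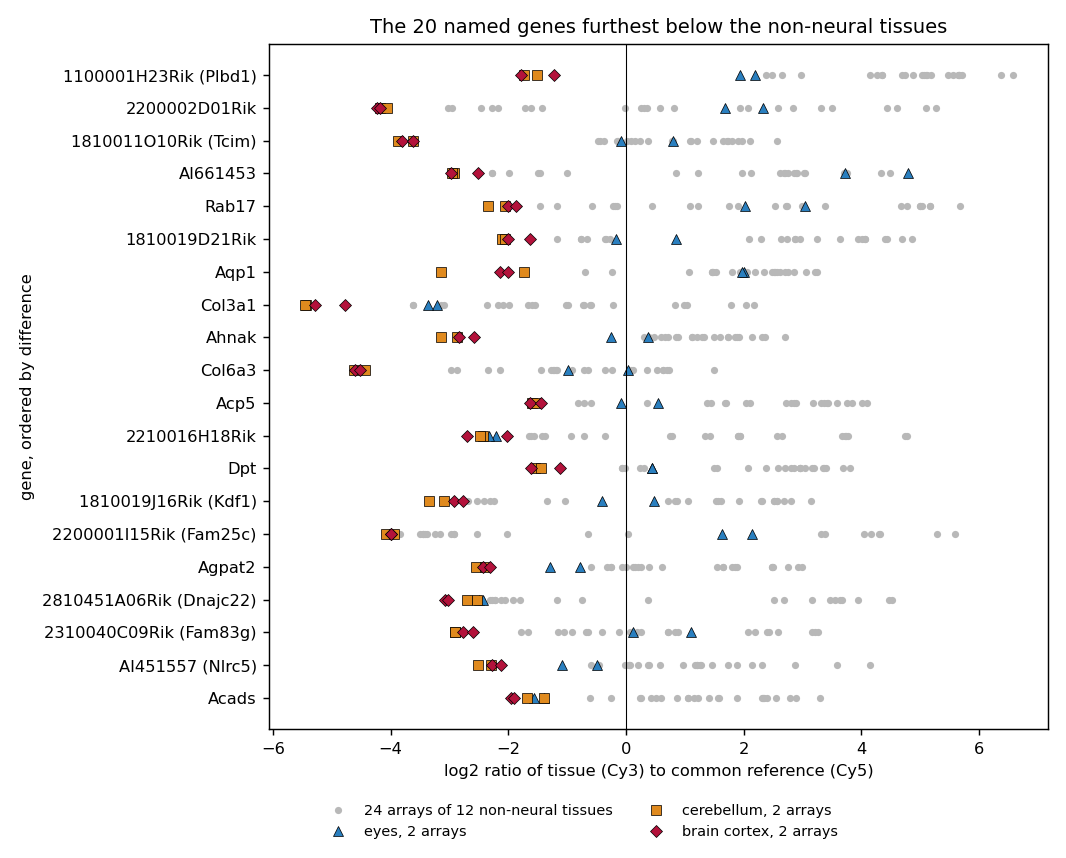
The 20 named genes furthest below the 12 non-neural tissues, with the log2 ratio of tissue to reference on the horizontal axis and 1 mark per array. Red diamonds are cortex, orange squares cerebellum, blue triangles eyes and grey points the 24 other arrays; the squares stand near the diamonds, while the triangles often stand among the grey points.

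For the lower genes the shares to read against are 5.12% of all tested probes and 2.77% of genes with a symbol. Of 32 genes of fatty acid oxidation 8 were lower, 25%, and 0 higher, with a median of -1.43. Over the settings run that kept the fold threshold and the filter 5 to 14 were lower. Adjusted p alone was under 0.05 for 27 of the 32, all lower, where 32.1% of all tested probes were lower by that rule. Acads, the short-chain acyl-CoA dehydrogenase, read -1.96 and -1.91 in cortex, and the 24 arrays had -0.62, 1.32 and 3.29 as lowest, median and highest. The difference was -3.34 ± 0.24 (SE, n = 2, limma adjusted p = 8.35e-10). Acaa2, the mitochondrial thiolase, read -0.85 and -0.59 against 1.79, 2.45 and 4.46, a difference of -3.33 ± 0.13 (SE, n = 2, limma adjusted p = 1.92e-13). Both enzymes were thus below all 24 non-neural arrays. Cerebellum read -1.68 and -1.39 for Acads and -1.04 and -0.83 for Acaa2, and eyes read -1.56 and -1.4 for Acads and 1.0 and 0.98 for Acaa2.

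Of the other acyl-CoA dehydrogenases, Acadl for long chains at -2.83, Acadvl for very long chains at -2.61 and Acadm for medium chains at -2.47 were called lower. Acad8 at 0.09, Acad9 at -0.50, Acadsb at -0.87 and Acad10 at -1.65 were not called. Acsm3 at -3.33, well above background on only 1 cortex array, the peroxisomal thiolase Acaa1b at -2.52 and the isomerase Dci (now Eci1) at -2.17 were lower too. The trifunctional protein subunits Hadha at -1.87 and Hadhb at -1.91, and Acad11 at -1.91, did not reach the fold threshold. Acadl and Acadvl were highest in heart, at up to 4.70 and 4.03 on 1 array, and Acsm3 in kidney, at 7.77. With arrays centred on their median Acadm, Acaa1b and Dci were no longer called. Over the 32 genes the median ratio was 0.19 and 0.09 on the cortex arrays, 0.21 and 0.14 in cerebellum and 0.15 and 0.30 in eyes, and 0.40 to 2.48 on the 24 arrays, lowest in large intestine and highest in liver. On all 6 neural arrays the median was below that of each of the 24 others.

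**Figure D5:**
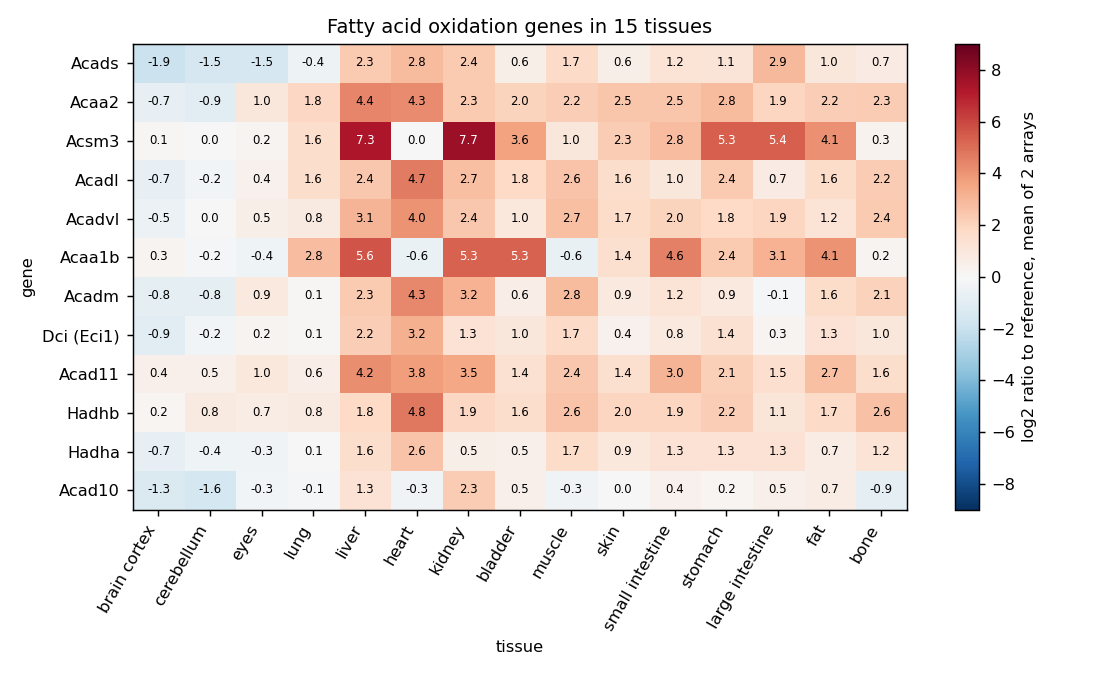
Heatmap of 12 genes of fatty acid oxidation, the 8 called lower in cortex and 4 that were not called, in 15 tissues; colour and number give the mean log2 ratio of 2 arrays. Heart, liver and kidney hold the darkest cells, up to 7.7 for Acsm3 in kidney, and Acads is at -1.9 in cortex.

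Of 54 genes of oxidative phosphorylation, which takes place in mitochondria, 1 was called lower, 1.85%, and 0 higher, with a median of -0.33, and of -0.03 with arrays centred on their median. By adjusted p alone 22 were lower and 2 higher, where 32.1% and 26.9% of all tested probes were. The called gene was Ndufab1, the acyl carrier protein of the mitochondrion and a subunit of complex I, which read -2.45 and -2.29 in cortex against -1.61 to 1.49, a difference of -2.53 ± 0.20 (SE, n = 2, limma adjusted p = 3.35e-09). Its cerebellum and eyes arrays read -1.97 to -1.72. Cox8a, a subunit of cytochrome oxidase, was at 0.95. With that centring Ndufab1 was at -1.91 and no longer called.

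Of 40 genes of extracellular matrix and mesenchyme 7 were lower and 1 higher, with a median of -0.79. In 13 of the 40 both cortex arrays lay below all 24, against a share of 9.01% over all tested probes. Over the settings that kept the fold threshold and the filter 5 to 10 were lower. Col3a1, a fibrillar collagen of skin and vessel walls, read -4.78 and -5.29 in cortex against -3.63, -1.0 and 2.18, a difference of -4.08 ± 0.45 (SE, n = 2, limma adjusted p = 2.96e-07). Col6a3 read -4.61 and -4.52 against -2.98 to 1.5, a difference of -3.92 ± 0.41 (SE, n = 2, limma adjusted p = 1.67e-07). Dpt, dermatopontin, was not well above background on either cortex array. It read -1.61 and -1.13 against -0.06 to 3.80, a log2 ratio difference of -3.65. On the scale of Cy3 levels alone its group means were 6.19 and 10.54 in log2, at least 20.4-fold lower in cortex on that scale only. Tns1 at -3.02, Adamts2, which trims procollagen, at -2.88, Ddr2, a collagen receptor, at -2.51 and Angptl2 at -2.10 were the others, and the calls of Ddr2 and Angptl2 ended with arrays centred on their median. The exception was Col19a1, a minor collagen, at 3.50 and 2.97 in cortex and 3.17 and 3.28 in eyes, higher than the 12 tissues by 2.51.

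Of 27 epithelial genes 6 were lower and 0 higher, with a median of -0.99. Beside Rab17 they were Lad1 of the basement membrane at -3.20, the transcription factor Elf3 at -2.5, the cornified envelope protein Sprr1a at -2.40, Tm4sf4 at -2.32 and the plakophilin Pkp1 at -2.27. Of 16 muscle markers 4 were lower, with Des, the intermediate filament desmin, at -3.25. Over the settings with the same fold threshold and filter 2 to 5 were lower. Des read -1.35 and -1.20 in cortex against -0.45 to 3.19 on the 24 arrays, and thus lay below organs without striated muscle as well. Under centring on the array median Elf3, Sprr1a, Tm4sf4 and Pkp1 were no longer called.

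Of 51 immune and cytokine genes 6 were lower and 0 higher, with a median of -0.73. The count depended on the processing. It was 2 under median centring in place of loess, where Cd55, Daf2, Sp110 and Rcsd1 were not called. With processed signals, also centred on the array median but without normexp, it was 17 and the median was -1.44. Ikbke, a kinase of interferon signalling, read -3.02 and -2.79 in cortex against -2.49 to 2.00, and Casp8, the initiator caspase of death receptors, -2.67 and -2.63 against -2.10 to 1.67. Their differences were -2.89 and -2.74. The complement regulators Cd55 at -2.53 and Daf2 (Cd55b), a near copy of it whose probe may share signal, at -2.15 were lower, with Sp110 at -2.38 and Rcsd1 at -2.07. The median ratio of the list was -0.44 and -0.33 on the cortex arrays, -0.59 and -0.63 in cerebellum and -0.27 and -0.28 in eyes, against -0.29 to 0.82 on the 24 arrays, highest in lung.

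Of 24 genes of xenobiotic and retinoid metabolism 4 were lower and 0 higher, and every one of the 24 differences was below 0. With the fold threshold and the filter kept, 3 to 9 were lower over the settings run, the most against the tissues of the same scan days. Gsta3, a glutathione transferase, read -1.91 and -2.0 in cortex, while the 24 arrays ran from -2.63 in bone over a median of 2.38 to 7.40 in liver. Muscle, at -2.18 and -2.61, lay below cortex. It differed by -4.18 ± 0.39 (SE, n = 2, limma adjusted p = 3.8e-08). Cbr2, a carbonyl reductase highest in lung, differed by -3.64, Ugt1a6a, a glucuronosyltransferase, by -3.26, and Fmo2, a monooxygenase highest in lung, by -2.60, the last not called with arrays centred on their median. Both eyes arrays were high for Gsta3, at 4.0 and 3.41, and for Cbr2, at 3.68 and 3.61. Cyp27a1, which oxidises cholesterol side chains, was at -1.78 and below all 24 arrays.

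The comparison with cerebellum uses the same cortex arrays as that with the 12 tissues. Against cerebellum a log2 difference of 1 was asked, and 672 probes were higher in cortex, 3.2%, and 478 lower, 2.27%. Rxrg was higher in cortex by 3.20 ± 0.40 (SE, n = 2 per tissue, limma adjusted p = 1.99e-05). It read 1.49 and 1.71 in cerebellum. Epha4 was higher by 2.93, Kcnq5 by 2.86, Adora2a by 2.62 and Ngef by 2.55. Adora2a is best known from striatum, and read 2.85 and 3.05 in cortex and 0.31 and 0.35 in cerebellum. Adrb1 at 2.13, Rgs4 at 1.83, Abi2 at 1.18 and Adcy2 at 1.08 were higher in cortex as well.

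The opposite direction held for St18, a zinc finger factor of oligodendrocytes, which was called higher in cortex than in the 12 tissues but lower than in cerebellum, by -2.68 ± 0.26 (SE, n = 2 per tissue, limma adjusted p = 8.81e-07). It read 3.36 and 2.45 in cortex and 5.72 and 5.45 in cerebellum. Homer3, a scaffold of Purkinje cells, read -0.68 and -0.49 in cortex and 0.90 and 1.13 in cerebellum, and Syt2, a fast calcium sensor of release, 0.75 and 0.57 against 1.78 and 1.71. Of the 53 named genes called lower than the 12 tissues, 0 were called against cerebellum, while of all 1076 lower probes 5.3% were lower and 0.651% higher there. With the scanner software's processed signals or the authors' table, the calls of Kcnq5, Adrb1, Rgs4, Ngef, St18, Abi2 and Adcy2 against cerebellum were lost. Those of Rxrg, Epha4, Adora2a and A830018L16Rik were kept in all settings run with the same fold threshold and filter.

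Against eyes, also with the same cortex arrays, 2170 probes were higher in cortex, 10.3%, and 2653 lower, 12.6%. Some genes high in cortex had a like ratio in eyes, such as Rgs8 at 4.57 and 4.64 and Scg2, and others did not, such as Kcnq5. The named genes were not the furthest apart of all probes tested. The probe furthest up, Z00027756-1, differed by 8.6, and the probe furthest down, Z00036206-1, by -7.43, with -2.20 and -1.77 in cortex against 3.17 to 6.81. Z00050494-1 read 2.53 and 2.63 in cortex, -6.34 and -6.45 in cerebellum, -3.98 and -3.81 in eyes and -6.53 to -3.42 on the 24 arrays, a difference of 8.23 (limma adjusted p = 3.03e-12). This probe was high in cortex against both other neural organs, and no gene is named for it here.

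At the fold threshold the named genes just inside were 4930432M17Rik at 2.022 and 9130005N14Rik at -2.006, and those just outside were Trim59 at 1.997 and 1300002K09Rik at -1.995. The calls near it rest on the chosen value of 2.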

How the data were processed

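Tissue RNA (Cy3) and a common reference (Cy5) were hybridised to 2-colour Agilent arrays, with the same dye orientation on all 30 arrays, and tissues were taken from the labels. The deposited spot files hold mean signal and local background as an intensity, with log10 ratios by the authors' scanner software and spot flags of other kinds. The authors' value table is on a log10 scale. Over 11667 bright probes it followed log10 of processed Cy3, adjusted for reference variation (slope 0.9979).

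Intensities were corrected by normexp (offset 50) and normalised by loess within each array, flagged outlier spots were removed (475 spots), spots of a probe were averaged, and log2(Cy3/Cy5) was computed from the deposited intensities. Probes of the authors' table were kept when well above background in Cy3 on both arrays of at least 1 tissue. limma 3.58.1 in R 4.3.3 fitted 1 coefficient per tissue over all 30 arrays (15 residual degrees of freedom), two-sided with Benjamini-Hochberg adjustment over 21026 probes. The script was tested on simulated data. Where a gene was not well above background on any array of a group, its fold is a bound on the scale of Cy3 levels (after loess and Aquantile, open to dye bias): the brighter group's mean against the higher of the gene's own level and the array's lowest level well above background. Missing spot values (193 in 174 tested probes) were left missing. The number of arrays limits the precision.

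Symbols came from the study's probe lists, held here in part, as names only, and of several probes of a gene the one with the highest mean Cy3 was used. Of 5047 symbols, 3166 were current in RefSeq (GRCm38.p6), 1534 were synonyms and 347 were in neither. Named genes were the 20 largest differences in each direction, among called genes with both cortex arrays outside the range of the 24, and the members of 22 lists. Members and lists were chosen with earlier results of these data known. A single gene that these lists count is left unnamed here.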

Additional observations from a re-analysis of the deposited data

Results flagged for a closer look

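Probes of the array that are outside the authors' value table gave a signal as well. Of 13622 such probes that passed the same filter, 784 were called higher in cortex than in the 12 non-neural tissues, 5.76%, and 379 lower, 2.78%. They carry no symbol here and enter no comparison above.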

How the results depend on the processing

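The count of higher probes stayed within 1.5 times of 1672 in every setting run except a changed threshold, while the count of lower probes depended on the processing. The 1076 lower probes became 1875 with the scanner software's processed signals and 1866 with the authors' table. The processed signals were also centred on the array median and took neither normexp nor loess, so more than 1 choice changed. A normexp offset of 10 gave 1363 lower probes, and median centring in place of loess gave 503. When cortex had to lie below each of the 12 tissue means by a log2 of 1 there were 303. Median centring moved the median of all probes by 0.16, from -0.11 to 0.05, and gave 1874 higher probes. With a threshold of 1 in place of 2 there were 3447 higher and 3399 lower probes and 208 list members called, and with 2 in place of 1 there were 336 probes against cerebellum and 1771 against eyes.

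Leaving out each replicate in turn gave 1591 to 1775 higher probes, 988 to 1142 lower probes, 99 to 105 list members, 857 to 1313 probes against cerebellum and 4084 to 4970 against eyes. With a replicate block the counts were 1672, 1076, 100, 1162 and 4845. Whether the replicate numbers pair the samples was not settled. Of 105 correlations between same-numbered deviations of 2 tissues, 33 were over 0.1 (median 0.05, range -0.25 to 0.34). The consensus correlation within a slide was 0.692 and within a scan day 0.586. Slide or scan day as a fixed block could not be fitted for the 12-tissue comparison. As a random block, slide gave 1676 higher and 1054 lower probes. Chosen after seeing the data, scan day as a random block gave 1744 and 1055, and against the 5 tissues scanned on the same days as cortex there were 1717 and 1190 with the day as a block.

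Alternatives were computed for 158 of the 456 named genes, the called ones and some others. None of these changed direction in 11431 alternative values. In every setting with the same fold threshold and filter, 100 of 127 called named genes stayed called. Among calls lost, median centring ended those of Acaa1b, Acadm, Dci, Ddr2, Angptl2, Fmo2, Cd55, Daf2, Sp110, Rcsd1, Raph1 and Neu4, processed signals or the authors' table those of Adcyap1r1, Adora2a, Astn1 and Nos1ap, and leaving out cortex replicate 2 that of Rxrg (1.98). Of the lists, with the fold threshold and the filter kept, immune genes had 2 lower under median centring and 17 with processed signals. Epithelium had 2 at the lowest, and fatty acid oxidation 5 to 14. The causes were not tested. Of the 1076 lower probes, 90 were not well above background on either cortex array.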
